A study of Mus musculus with 2 samples.

Results

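The cells described here are the Irf8- and Ms4a6c-high cells of a mouse MLL-AF9 leukemia. They were chosen by measured values: for every cell with 500 or more detected genes, the UMIs (unique molecular identifiers, which tag single captured transcripts) of Irf8, Ms4a6c, S100a10, Tpm4 and Itgb7 were summed and divided by the cell's total, and the top 10% of cells were selected with both libraries pooled. This gave 741 of 7411 kept cells (8309 deposited), 369 of 3866 in the WT-labelled library and 372 of 3545 in the KO-labelled library. The score that selected them is a range and not a type. Levels of the 5 genes in the selected cells are therefore a description, and since the genes were picked from these same cells, every other contrast between selected and remaining cells is a description too.

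The study asked what loss of Kat2a, a histone acetyltransferase, does to this leukemia. Both genotypes came from C57Bl/6 mice homozygous for a floxed Kat2a allele (Kat2a Flox/Flox), Mx1-Cre -/- for WT and Mx1-Cre+/- for KO, and both received pIpC at 6 to 10 weeks of age, which induces the interferon-responsive Mx1 promoter that drives Cre in blood cells and in other tissues. Lineage-depleted bone marrow was taken 4 to 6 weeks after pIpC, transduced with a retrovirus carrying MLL-AF9 and a YFP reporter, and grown in lethally irradiated recipients. Terminal marrow of 5 WT and 4 KO leukemias was thawed, pooled by genotype and sorted for live YFP+ singlets, which leaves out cells without the virus, and each pool gave 1 library of the 10x 3′ assay. With 1 library per genotype there was no replicate, so no test between genotypes was possible, no p-value was computed, and every interval (95%, exact Poisson for sums, exact Clopper-Pearson for shares) covers counting error only.

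Irf8 is a transcription factor of the interferon regulatory factor family that directs myeloid progenitors toward monocytes and dendritic cells and away from granulocytes. It binds DNA together with the ETS factor PU.1 (gene Spi1) at composite sites, or with other partners at interferon response elements, and its own gene is induced by interferon gamma through a gamma-activated site. Ms4a6c encodes a membrane protein of the MS4A family found in monocytes and macrophages. S100a10 is the partner of annexin A2 at the plasma membrane, Tpm4 is a tropomyosin that coats actin filaments, and Itgb7 is the beta-7 chain of integrins used in leukocyte homing.

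Promoter windows (250 bases before to 50 after the start site, RefSeq, GRCm38.p6) are printed for the gene that gives the selection its name, for its companion Ms4a6c, and for Ctss, the leading gene outside the rule. Capitals mark matches to the letters searched. Irf8 lies at chr8:120736108-120736407 on the plus strand, Ms4a6c at chr19:11469118-11469417 on the plus strand, and Ctss at chr3:95526536-95526835 on the plus strand.
Irf8: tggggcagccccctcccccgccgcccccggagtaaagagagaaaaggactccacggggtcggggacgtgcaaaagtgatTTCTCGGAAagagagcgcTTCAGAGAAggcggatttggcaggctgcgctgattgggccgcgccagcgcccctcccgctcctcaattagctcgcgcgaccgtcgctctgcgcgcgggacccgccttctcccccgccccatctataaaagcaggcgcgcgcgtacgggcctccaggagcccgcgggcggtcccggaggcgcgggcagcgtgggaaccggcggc
Ms4a6c: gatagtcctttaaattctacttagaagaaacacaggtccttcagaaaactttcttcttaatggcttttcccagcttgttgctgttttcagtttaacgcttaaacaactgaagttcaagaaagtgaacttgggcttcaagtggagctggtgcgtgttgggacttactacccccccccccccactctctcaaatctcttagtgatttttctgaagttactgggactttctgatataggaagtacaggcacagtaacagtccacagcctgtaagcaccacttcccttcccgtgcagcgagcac
Ctss: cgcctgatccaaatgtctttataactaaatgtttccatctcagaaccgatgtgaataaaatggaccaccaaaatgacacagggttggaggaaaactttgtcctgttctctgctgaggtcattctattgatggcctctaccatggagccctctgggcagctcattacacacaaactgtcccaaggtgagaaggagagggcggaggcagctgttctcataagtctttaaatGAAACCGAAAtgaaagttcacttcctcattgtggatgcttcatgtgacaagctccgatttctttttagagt

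Letters of 3 kinds were searched on both strands. The ETS-IRF composite GGAANNGAAA was present in 2.72% of 32851 promoter windows, the interferon response element GAAANNGAAA in 3.44% and the gamma-activated site TTCNNNGAA, which reads alike on both strands, in 8.30%. GAAANNGAAA and GGAANNGAAA share the letters GAAA, and any of the searched letters may overlap. RefSeq gives Irf8 2 windows, and the printed one held 2 matches to the gamma-activated site, TTCTCGGAA beginning 171 bases and TTCAGAGAA beginning 153 bases before the start site, while the other window held none. In the Ctss window GAAACCGAAA began 21 bases before the start site, and the Ms4a6c window held no match. Of the 15 leading genes below, 13 were searched (not Cd74 and C1galt1c1), and 3 of them held a match: Ctss, Txndc5 (interferon response element, in 1 of 3 windows, 163 bases before the start) and Ctsc (gamma-activated site, 236 bases before the start). A chromosome was left out of this search by gene, but not of the shares that follow. The share of all genes with a match of any kind in any window was not counted, so the 3 of 13 has no like share beside it. Among the genes called higher below, 180 of 229 had a window, and 6.67% of these held the interferon response element, 1.67% the composite and 10% the gamma-activated site, against 4.11%, 2.64% and 8.03% of the 2043 tested genes with a window. A match is a run of letters, and binding was not measured.

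The score fell off without a gap. The lowest selected cell had 28.4495 UMIs of the 5 genes per 10000, and the first cell outside had 28.4437. Within 10% of that value lay 111 cells above it and 117 below it, the median of the selected cells was 39.9 and the highest was 161 per 10000. Among kept cells 58.6% had no UMI of any of the 5 genes.

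**Figure D1:**
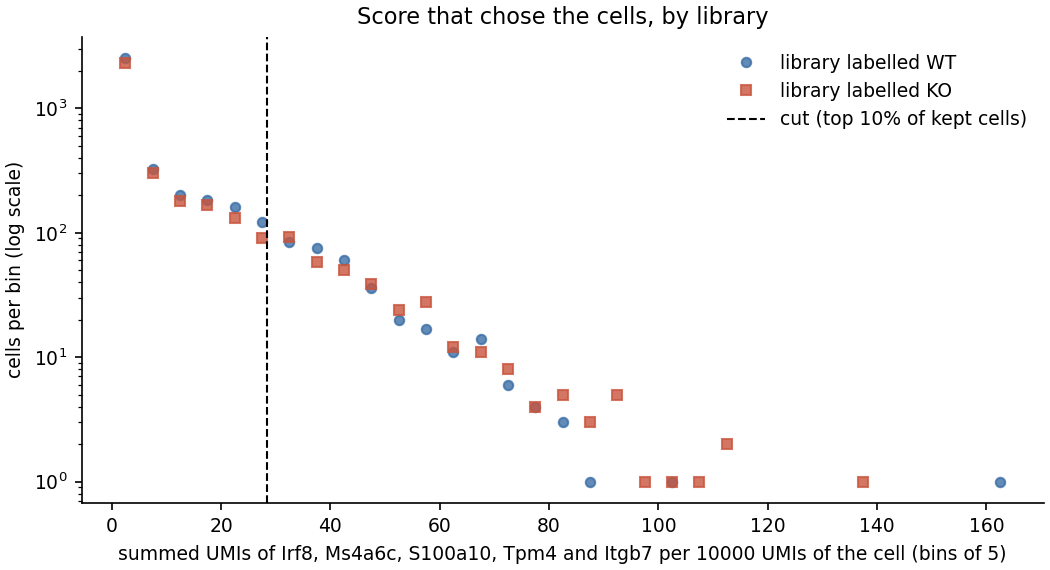
Number of kept cells (log scale) in bins of 5 of the score, UMIs of the 5 genes per 10000 UMIs of the cell, for the WT-labelled library (blue circles) and the KO-labelled library (red squares). The dashed line is the cut at 28.4 per 10000, and the counts pass through it in both libraries with no separate peak of high cells.

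The 5 genes and their levels in the selected cells were as follows, in CPM (UMIs per 1000000 UMIs of the group), with positions from GENCODE M21 on GRCm38. Irf8 (ENSMUSG00000041515, chr8:120736358-120756694, plus strand) stood at 848 CPM (788 to 911) in the WT-labelled library against 116 in its other cells, and at 574 (516 to 635) in the KO-labelled library against 62.2. Ms4a6c (ENSMUSG00000079419, chr19:11469366-11482192, plus strand) stood at 1193 against 122 and at 1774 against 158 CPM. Irf8 was thus lower, and Ms4a6c higher, in the KO-labelled than in the WT-labelled library, in selected cells as in other cells.

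S100a10 (ENSMUSG00000041959, chr3:93555080-93564643, plus strand) had 1110 CPM in selected cells of the WT-labelled library against 83.9 in others, and 1021 against 74.3 in the KO-labelled library. Tpm4 (ENSMUSG00000031799, chr8:72134975-72153142, plus strand) had 502 against 48.8 and 376 against 45.3 CPM. Itgb7 (ENSMUSG00000001281, chr15:102215995-102231944, minus strand) had 497 against 44.5 and 627 against 54.5 CPM. The makeup of the score differed between the libraries: Ms4a6c gave 28.8% of the 5-gene UMIs of selected cells in the WT-labelled library and 40.6% in the KO-labelled library, while Irf8 gave 20.4% and 13.1%.

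Most selected cells were chosen on several of the genes. At least 3 of the 5 were detected in 78.0% of selected cells labelled WT (9.67% of other cells) and in 63.4% of those labelled KO (5.17% of others), at median depths of 2019 and 1398.5 UMIs (2685 and 1949 in others). A single gene carried the selection in 15 cells labelled WT and 31 labelled KO. Irf8 and Ms4a6c were detected together in 184 and 155 selected cells, and 3.52% and 7.26% of selected cells had neither.

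Each gene also followed the other 4. When Irf8 was left out of the score and the top 10% were chosen again on the remaining genes, with every cell thinned to 1000 UMIs, Irf8 stood at 528 CPM in the chosen cells labelled WT against 137 in the rest, a log2 ratio of 1.95 (1.69 to 2.20), and at 361 against 64.5 in those labelled KO, 2.48 (2.16 to 2.80). For Ms4a6c the same ratios were 1.57 (1.34 to 1.79) and 2.18 (2.00 to 2.36). S100a10 gave 2.23 and 2.04, Tpm4 gave 2.21 and 2.16, and Itgb7 gave 2.23 and 2.24. At equal depth each gene was thus higher in cells chosen by the other 4, in both libraries, which is a description since the set had been picked from these libraries.

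The share of selected cells was 9.54% (8.64 to 10.5%) in the WT-labelled library and 10.5% (9.50 to 11.5%) in the KO-labelled library, a log2 ratio of 0.14 (-0.07 to 0.35) whose counting interval includes 0. After thinning to 1000 UMIs, which left out 66 kept cells labelled WT and 194 labelled KO, the shares were 9.03% and 11.1%, a log2 ratio of 0.30 (0.08 to 0.51). Among cells with 1000 or more genes the ratio was -0.24, so the direction changed with the cells kept and none is given here. Of the 651 selected cells with at least 1000 UMIs, 513 (78.8%) were chosen again after thinning.

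Facts of the series that bear on these values are few. Kept cells had medians of 2588.5 UMIs (WT) and 1884 (KO), and total depth was 11892536 and 8585416 UMIs. Kat2a itself went against the labels, at 9.16 CPM (8 UMIs) in selected cells labelled WT and 73.3 CPM (47 UMIs) in those labelled KO, and at 12.4 and 97.8 CPM in other cells. Excised Kat2a still makes a transcript with its last exon, exon 18, which a 3′ assay reads, so that this gene does not check the genotype. The barcode number that separates the libraries was matched to genotype through the study's own code, so every direction between the libraries holds only as far as that assignment. The libraries shared 28 barcode sequences, and none of them belonged to selected cells of both.

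Outside the 5 genes, the selected cells had higher levels of monocyte and macrophage genes and far lower levels of neutrophil granule genes than the other leukemia cells. A gene was called higher or lower where its CPM differed 1.5-fold or more in the same direction in both libraries, among 2650 genes with 50 or more CPM over kept cells. By that rule 229 genes (8.64%) were higher and 144 (5.43%) lower, with median log2 ratios over all tested genes of 0.09 (WT) and 0.08 (KO). The 50 CPM filter counts the selected cells too, so a gene high in them can pass it through them, which can add to the higher calls. Higher calls made up 61.4% of the calls. In scalings added after the data were seen, they made up 51.9% (176 higher, 163 lower) with ratios centred on those medians, and 45.8% (160 higher, 189 lower) when granulocyte-list UMIs were taken out of every total.

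Ctss, the lysosomal protease cathepsin S that trims the invariant chain in antigen-presenting cells, led the higher genes at 927 CPM against 139 in the WT-labelled library and 1192 against 169 in the KO-labelled library, log2 ratios of 2.74 and 2.82. Pld4, an endolysosomal nuclease, had 546 against 96.0 and 577 against 86.0 CPM. Wfdc17, a small secreted protein of the WAP family, had 982 against 173 and 602 against 85.5 CPM. Each of these 3 genes was more than 5-fold higher in both libraries.

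Ifi30, the thiol reductase of antigen processing, was 5.14-fold (WT) and 4.27-fold (KO) higher, and Ctsc, the cathepsin that activates granule proteases, 4.55-fold and 4.22-fold. F13a1, the A chain of coagulation factor XIII and a monocyte gene, had 455 against 111 and 329 against 69.4 CPM. Apoe, the lipid carrier of macrophages, had 1715 against 361 CPM in the WT-labelled library and 1412 against 284 in the KO-labelled library. Crip1, C1galt1c1, Pira2, Txndc5, Cyp4f18 and the chemokine Ccl9 completed the leaders, at log2 ratios between 2.01 and 2.54. Pira2 had 50.5 CPM over kept cells but 49.1 (WT) and 25.6 (KO) in other cells, so it passed the filter through the selected cells.

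**Figure D2:**
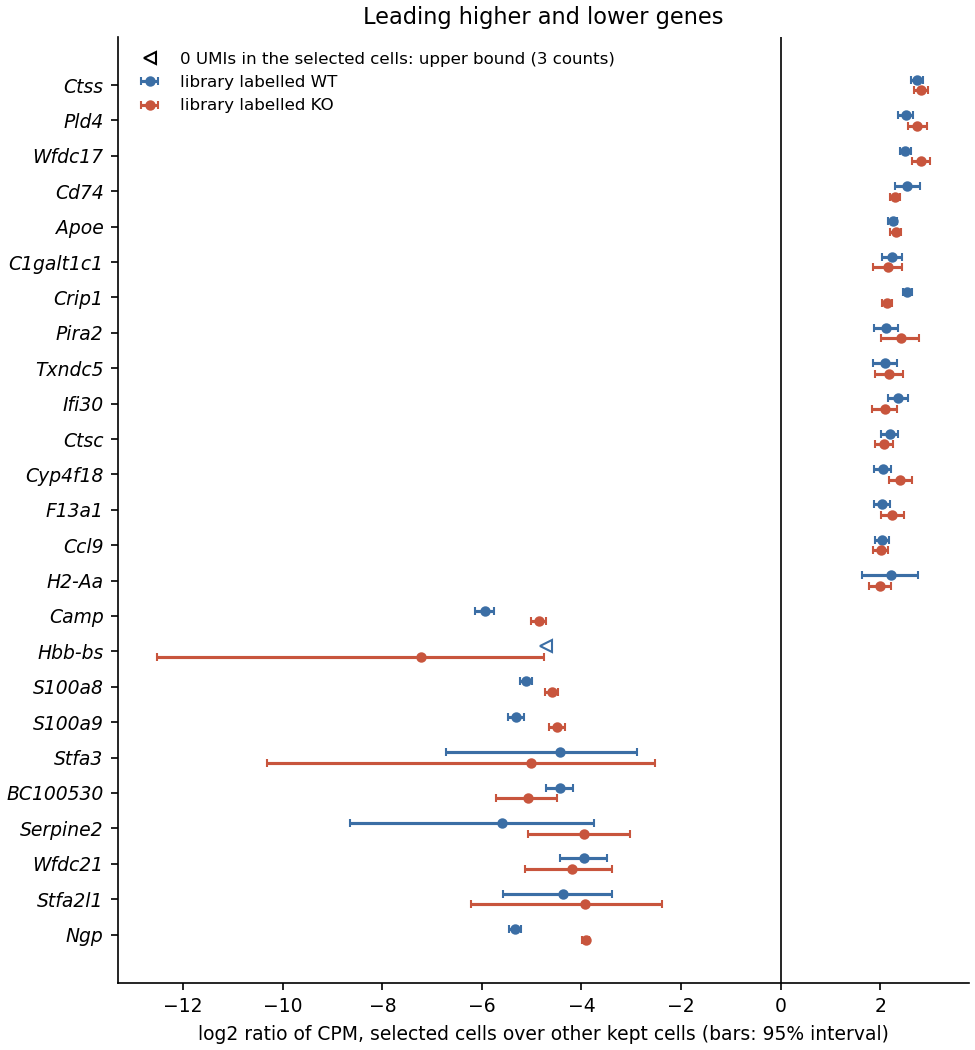
Log2 ratio of CPM, selected over other kept cells, of the 15 leading higher and 10 leading lower genes, with the WT-labelled library in blue and the KO-labelled library in red, bars the 95% counting interval and an open triangle a bound. The higher genes lie between 2.00 and 2.82 in both libraries and the lower genes lie at -3.91 or below, with wide bars where the selected cells hold few UMIs.

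Cd74, the invariant chain of MHC class II, and H2-Aa, a class II alpha chain, also passed the rule, but from few cells. Cd74 had 226 against 38.6 CPM (WT) and 1864 against 377 (KO), and 92.9% and 94.6% of its UMIs in selected cells came from the 6 and 27 cells with 5 or more of them. Without those cells and the like cells among the others, the levels were 16.2 against 4.08 and 107 against 30.0 CPM. H2-Aa had 44.7 against 9.63 and 365 against 91.0 CPM, with UMIs in 4 and 26 selected cells. It lay near the filter, at 53.0 CPM over all kept cells. Among cells with 1000 or more genes the H2-Aa ratio turned to -0.95 (WT) and -0.32 (KO) on the log2 scale, so its direction changed with the cells kept, and the Cd74 ratios dropped to 1.14 in both libraries. Of all kept cells with 5 or more Cd74 UMIs, 6 of 12 (WT, 21.1 to 78.9%) and 27 of 89 (KO, 21.0 to 41.0%) were selected.

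The working name of these cells is monocyte-like, and the list of 24 monocyte genes was set against it. Of 14 list genes at 50 CPM or more, 10 were higher, none lower and 4 not called, with medians of 1.39 (WT) and 1.20 (KO) on the log2 scale. The summed list stood at 25990 CPM against 11743 in the WT-labelled library, a log2 ratio of 1.15 (1.13 to 1.17), and at 19916 against 9731 in the KO-labelled library, 1.03 (1.01 to 1.06). Thinned to 1000 UMIs a cell, the ratios were 1.05 and 0.94.

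Several defining monocyte genes were present. Ly6c2, the antigen of classical monocytes, had 2107 against 986 CPM (WT) and 1462 against 848 (KO), and Ccr2, the chemokine receptor that releases monocytes from marrow, had 285 against 101 and 238 against 101 CPM. Lgals3, galectin 3, was 2.61-fold and 3.14-fold higher, and Ly86, the partner of the lymphocyte antigen RP105, 3.89-fold and 2.93-fold. Lyz2, lysozyme, was 2.79-fold and 1.68-fold higher, and Psap, the precursor of the saposins that help degrade sphingolipids, 4.25-fold and 3.61-fold. Tyrobp and Fcer1g, signalling adaptors of most myeloid cells, were not called, at log2 ratios of 0.38 and 0.54 and of 0.15 and 0.36.

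Of the 24 monocyte genes, 10 lay under 50 CPM over all cells and were not called. Only some of the 10 are given here, chosen after their values were seen. Among these, Csf1r, the receptor for the macrophage growth factor, had 92.8 against 23.3 CPM (WT) and 96.6 against 18.5 (KO), and Klf4, a factor needed for monocyte formation, had 74.4 against 14.4 and 77.9 against 12.1. Neighbours of Ms4a6c in the MS4A family that the rule did not use had ratios of the same kind: Ms4a4c stood at 219 against 18.1 and 234 against 22.3 CPM, and Ms4a6b at 160 against 30.1 and 235 against 38.2. The family member Ms4a3, a marker of granulocyte-monocyte progenitors, was called lower, at 92.8 against 731 and 120 against 851 CPM. Reads that near-identical MS4A genes share could move counts between them, and this was not tested.

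Macrophage and MHC class II genes were higher as well, so the cells are called here by Irf8 and Ms4a6c, genes of the score, and given no cell type name. All 5 macrophage-list genes at 50 CPM or more were higher (Apoe, Ccl6, Ccl9, Cd68 and Adgre1), and the list stood at 3785 against 950 CPM (WT) and 3493 against 926 (KO). Ccl6, a chemokine, was 4.41-fold and 3.98-fold higher and Cd68, a lysosomal glycoprotein, 3.16-fold and 2.73-fold. Of 14 list genes, 4 had no UMI in any selected cell, Mrc1, C1qa, Cd5l and Mertk, and C1qb stood at 3.44 CPM in the WT-labelled library and 0 in the KO-labelled library.

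Many genes that define dendritic and lymphoid cells had no UMI in selected cells, where the limit of 3 counts that a count of 0 allows stood at 3.44 CPM (WT) and 4.68 CPM (KO). Of those named here and among the macrophage genes, Clec9a, Xcr1, Pax5, Cd5l and Mertk had no UMI in any kept cell, so their zeros do not set the selected cells apart. Zeros were common over all genes: of 27998 genes, 9871 had a UMI in selected cells of both libraries. The rest include genes seen in a single library, and the share of all genes at 0 in every selected cell was not counted. Counts of list genes at 0 are therefore a description only. Of 14 dendritic cell genes 7 were at 0, including Siglech, Clec9a, Xcr1, Zbtb46 and Itgax, and the 2 that were called higher, Cst3 (cystatin C, 2.08-fold and 2.27-fold) and Bst2 (tetherin), occur widely in myeloid cells. The summed dendritic cell list was higher, at 1992 against 954 CPM (WT) and 2074 against 929 (KO), log2 ratios of 1.06 and 1.16. In the B cell list Cd79a, Ebf1 and Pax5 were at 0 in all selected cells. Cd79b was called higher, at 97.4 against 49.6 and 132 against 71.6 CPM. The T and NK cell list had 6 of 8 genes at 0, and Nkg7, also a gene of granulocyte progenitors, was lower. Among 8 basophil and mast cell genes 4 were at 0 and Mcpt8, the only one at 50 CPM, was lower. The erythroid list stood at 13.7 CPM against 224 (WT) and 26.5 against 597 (KO), with all 4 globin genes called lower, and no megakaryocyte gene reached 50 CPM.

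Regulators of the monocyte and dendritic branches split. Cebpb, a factor active in mature monocytes, was 1.93-fold and 1.55-fold higher and Zeb2, a repressor used in monocyte and dendritic development, 2.38-fold and 2.83-fold. Cebpe, which drives the secondary granule program, had 128 against 561 CPM (WT) and 109 against 541 (KO), and Gfi1, the repressor that favours granulocytes, had 4.58 against 62.0 and 14.0 against 42.3. Spi1, which encodes the Irf8 partner PU.1, had 652 against 701 and 753 against 732 CPM, a difference under the fold in either library. Irf4, the nearest relative of Irf8, had no UMI in selected cells, and Irf7 stood at 28.6 against 8.52 and 31.2 against 9.21 CPM. The list thus gave 2 higher, 2 lower and 2 uncalled among its 6 genes at 50 CPM.

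The 10 leading lower genes differed by more than the 15 leading higher genes did, and several were granule genes. Camp, the cathelicidin of secondary granules, stood at 258 CPM in selected cells against 15837 in others (WT) and at 522 against 15186 (KO), log2 ratios of -5.94 and -4.86. Ngp, neutrophilic granule protein, had 711 against 28739 and 2255 against 34018 CPM. S100a8 and S100a9, the subunits of calprotectin, had log2 ratios of -5.11 and -5.31 (WT) and of -4.60 and -4.49 (KO). Of the granulocyte list, 11 of 12 genes at 50 CPM were lower, with medians of -3.86 and -3.38 on the log2 scale. The other gene, Mmp8, went the other way in the WT-labelled library, at 180 against 68.2 CPM, a log2 ratio of 1.40 (1.14 to 1.65). In the KO-labelled library it had 37.4 against 34.1 CPM, so it was not called. The list filled 17403 CPM of selected cells labelled WT against 110223, and 8765 against 100168 of those labelled KO. Of these sums in selected cells, Chil3 alone, a chitinase-like protein, made up 14558 and 4149 CPM.

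Primary granule genes, made earlier in the granulocyte and monocyte lineage, were lower to a lesser degree. Elane, neutrophil elastase, had 1771 against 8565 CPM (WT) and 1716 against 7886 (KO), and Mpo, myeloperoxidase, 546 against 1252 and 651 against 1360. Ctsg, cathepsin G, was also lower, while Prtn3, proteinase 3, had 2830 against 2786 and 2254 against 2125 CPM. The stefins Stfa3, Stfa2l1 and BC100530, of a family of cysteine protease inhibitors, and the WAP family member Wfdc21 stood among the 10 lowest genes together with Serpine2, on 1 to 3 UMIs in either library for Stfa3 and on 24 to 116 for BC100530. The globin Hbb-bs had no UMI in selected cells labelled WT, at least 26.2-fold lower with a floor of 3 counts, and 1 UMI in those labelled KO, which gave -7.23 on the log2 scale (-12.5 to -4.75). When cells were selected again after thinning to 1000 UMIs, the Hbb-bs ratio in the KO-labelled library was 0.27.

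**Figure D3:**
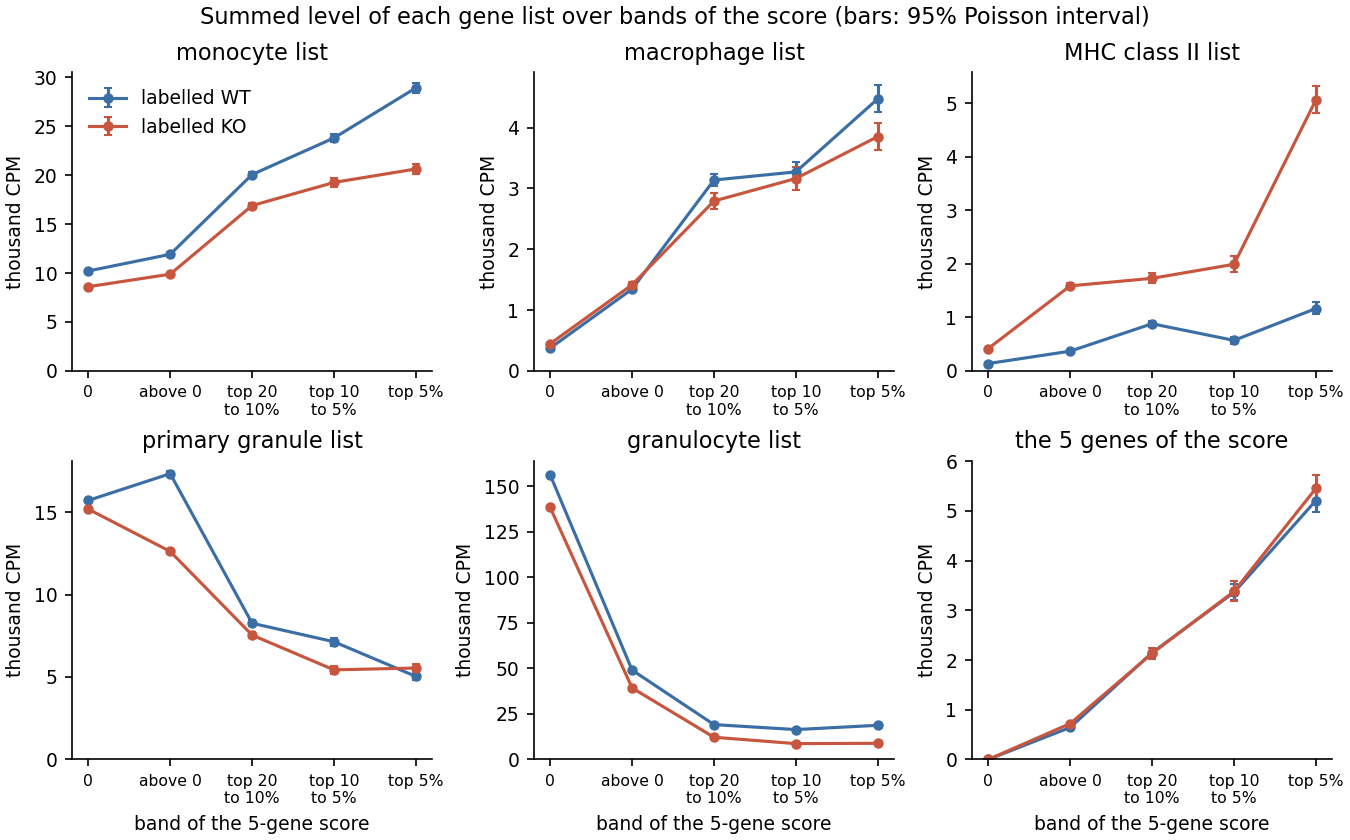
Summed level (CPM divided by 1000) of 5 gene lists and of the score's own genes over 5 bands of the score, from cells at 0 to the top 5%, with the WT-labelled library in blue, the KO-labelled library in red and bars the 95% Poisson interval. Monocyte and macrophage lists climb with the score and the granulocyte list drops from 156293 (WT) and 138388 CPM (KO) at a score of 0 to 18748 and 8857 CPM in the top 5%. The granulocyte list is lowest between the top 10% and top 5%, at 16402 and 8681 CPM.

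These differences did not begin at the cut. Cells between the top 20% and the top 10% of the score, just outside the selection, had monocyte-list levels of 20063 CPM (WT) and 16895 (KO), between the 10209 and 8603 CPM of cells at a score of 0 and the 28923 and 20636 CPM of the top 5%. Their macrophage list stood at 3138 and 2793 CPM, against 374 and 446 at a score of 0. The granulocyte list had already dropped to 19129 and 12181 CPM in that band. The MHC class II list in the WT-labelled library had 880 CPM just outside, 569 between the top 10% and top 5%, and 1165 in the top 5%, and in the KO-labelled library 1729 CPM just outside, 1991 between the top 10% and top 5%, and 5062 in the top 5%.

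Genes that share a family or a structure with S100a10, Tpm4 and Itgb7 were compared. Anxa2, the annexin bound by S100a10, was 1.72-fold (WT) and 1.94-fold (KO) higher, and Anxa5 was 2.14-fold and 2.52-fold higher. S100a6 was 1.59-fold and 2.42-fold higher, and in all 3 of the 12 annexin and S100 genes at 50 CPM were higher and 5 lower, S100a8 and S100a9 among the lower. In the actin and tropomyosin list 17 of 22 genes were not called, Tpm3 standing at 655 against 693 and 645 against 641 CPM. The 4 higher genes of that list were Tmsb10, a thymosin that binds actin monomers (3173 against 825 and 2063 against 587 CPM), Vim, vimentin (1051 against 431 and 806 against 234), Capg and Lsp1. Neither integrin at 50 CPM, Itgb2 and Itgam, was called, and Itga4, the chain that pairs with Itgb7, had 41.2 against 21.7 and 45.2 against 16.1 CPM.

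Proliferation lists were somewhat lower, with few single genes past the fold. The S phase list stood at 1917 against 2268 CPM (WT) and 1837 against 2874 (KO), and the G2 and M phase list at 2146 against 2615 and 2244 against 3225. Only 1 of 15 S phase genes (Dut) and 1 of 14 G2 and M phase genes (Cks2) were called, both lower. At an equal depth of 1000 UMIs, 25.1% of selected cells labelled WT (20.6 to 30.0%) had UMIs of 2 or more S phase genes against 34.5% of others, and 27.0% (22.1 to 32.3%) of those labelled KO against 46.5%. Without thinning the same shares were 39.6% against 54.3% and 33.9% against 60.3%. The part of free RNA in such shares was not tested. Self-renewal genes of MLL-AF9 cells mostly did not pass the fold: Myb, at 82.5 against 147 and 77.9 against 151 CPM, was the single gene called lower of 6, and Hoxa9, Hoxa10 and Mef2c were not called. Of 2 interferon response genes at 50 CPM both were higher, Bst2 and Ifitm3 (446 against 128 and 740 against 231 CPM).

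The selected cells were spread over several clusters. Kept cells were grouped by k-means into 12 clusters from 1000 variable genes without the 5 genes of the score, and clusters are numbered by the share of their cells that was selected. Clusters 1, 2 and 3 held 79.9% of the selected cells in 22.6% of all kept cells, and clusters 1 to 5 held 99.3%. Cluster 1 (leading genes Pld4, Wfdc17, Itgb7, S100a10, Ctss) had 43.4% of its 472 cells selected, cluster 2 (Ccl6, Apoe, Wfdc17, Ctss) 34.7% of 597, and cluster 3 (globin genes, then H2-Aa, Cd74 and H2-Ab1) 29.7% of 606. All selected cells together held 12 UMIs of the erythroid list in the WT-labelled library and 17 in the KO-labelled library. The globin genes thus do not describe the cells selected from cluster 3. In cluster 4 (Mcpt8, Nras, Hras, Spp1), 14.6% of 697 cells were selected, and clusters 6 to 12 gave 5 selected cells in all. None is given a cell type name, since the leading genes mix several lists.

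**Figure D4:**
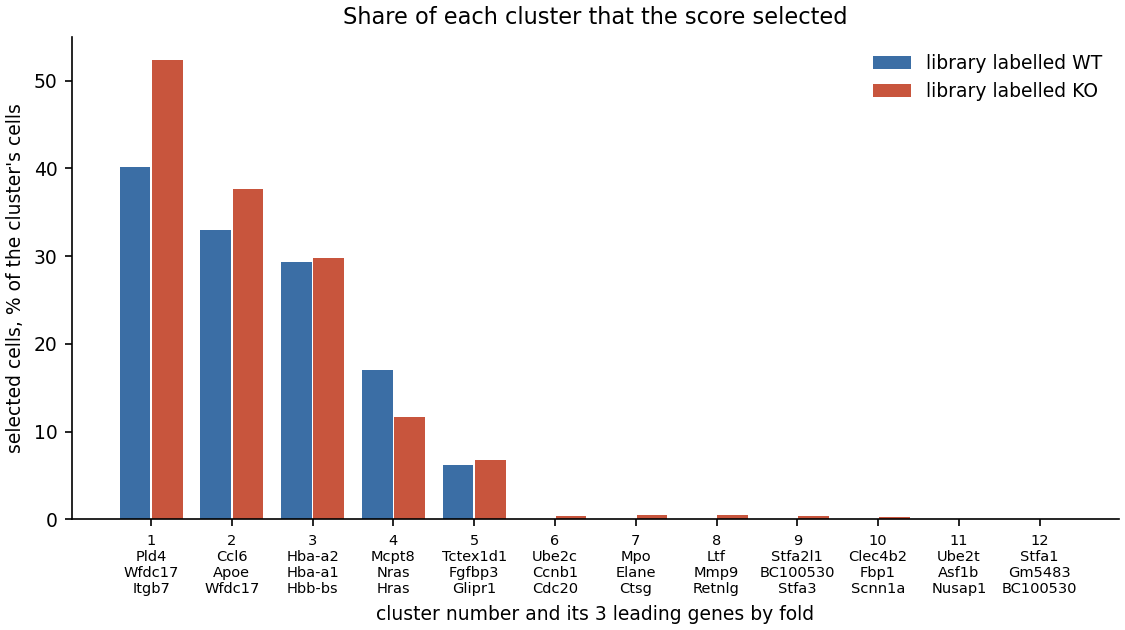
Percent of the cells of each of 12 clusters that the score selected, by library (blue labelled WT, red labelled KO), with the 3 leading genes of each cluster under its number. Selected cells make up between 29.3 and 52.4% of clusters 1 to 3 in either library and under 1% of clusters 6 to 12.

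Which clusters held the selected cells differed between the libraries. Cluster 1 held 37.7% of those labelled WT and 17.7% of those labelled KO, cluster 2 held 34.1% and 21.8%, and cluster 3 held 3.25% (12 cells) and 45.2% (168 cells). Cluster 3 itself was nearly all of the KO-labelled library, 565 of its 606 cells. Inside clusters 1 to 3 the monocyte list stood at 34598 against 32500 CPM (WT) and 23429 against 20836 (KO), and the granulocyte list at 22264 against 26187 and 8551 against 9032. There the MHC class II list was lower in selected cells, at 1079 against 1169 CPM (WT) and 4684 against 4983 (KO), and the macrophage list stood at 5551 against 6254 and 4294 against 3964. The higher macrophage and MHC class II levels of the selection as a whole thus did not appear between selected and remaining cells inside these clusters, except for the macrophage list in the KO-labelled library. Over all kept cells the monocyte list stood at 25990 against 11743 CPM (WT) and 19916 against 9731 (KO). The granulocyte list stood there at 17403 against 110223 and 8765 against 100168 CPM. The monocyte and granulocyte differences were therefore also far smaller inside clusters 1 to 3. Outside those clusters the 92 and 57 selected cells had 13480 and 12215 CPM of the monocyte list, against 9917 and 8318 in the remaining cells, and 10339 and 9235 CPM of the granulocyte list against 117619 and 111765.

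The selection was set beside 3 others made in the same way from other genes, each the top 10% of kept cells. It shared 239 cells (32.3%) with the top 10% by Apoe and Ccl6, 258 cells (34.8%) with the top 10% by Ly6e, Pik3ip1 and H2-DMa (22.8% of selected cells labelled WT and 46.8% of those labelled KO), and none with the top 10% by granulocyte genes. The Ly6e, Pik3ip1 and H2-DMa selection itself held 5.98% of all kept cells labelled WT and 14.4% of those labelled KO. The larger share labelled KO thus stood beside a larger selection in that library. All of these selections were drawn from the same cells. The cells shared with the Apoe and Ccl6 selection had a higher monocyte list, which holds neither gene, than those that were not shared, 44110 against 19810 CPM (WT) and 31519 against 16733 (KO). The cells chosen by Apoe and Ccl6 alone had 36042 and 26945 CPM of that list, more than the 25990 and 19916 CPM of all selected cells. The granulocyte list was higher in the shared cells too, at 29554 against 13260 and 12451 against 7754 CPM. Ms4a6c of the shared cells stood at 2027 against 909 and 2063 against 1694 CPM, and S100a10 at 640 against 1270 and 804 against 1080. Irf8 stood at 613 against 928 CPM in the WT-labelled library and at 680 against 544 in the KO-labelled library, where the counting interval of the log2 ratio, -0.03 to 0.67, includes 0. The MHC class II list was lower in the shared cells, at 513 against 929 and 1817 against 3907 CPM.

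Between the libraries, selected cells labelled KO had more MHC class II than selected cells labelled WT, and granule genes differed in both directions. Among 2651 genes, 246 (9.28%) were 1.5-fold or more higher and 216 (8.15%) lower in those labelled KO, with a median log2 ratio of 0.05. In other cells 104 and 99 genes passed the same fold. Genes passing it in both kinds of cells numbered 61 higher (24.8% of those of the selected cells, 58.7% of those of other cells) and 61 lower (28.2% and 61.6%). The summed depth behind the selected cells was 873113 UMIs (WT) and 641640 (KO), against 10796314 and 7278616 for other cells. The leukemias inside a pool carry no label, so genotype and leukemia cannot be told apart.

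Cd74 stood at 226 CPM in selected cells labelled WT and 1864 in those labelled KO, a log2 ratio of 3.05 (2.83 to 3.27), and at 38.6 and 377 in other cells, 3.29. H2-Aa (44.7 and 365 CPM) and H2-Ab1 (37.8 and 327 CPM) had ratios of 3.03 and 3.11. With cells thinned and selected again, the ratio was 1.45 for Cd74 and 1.14 for H2-Aa. Cd74 and H2-Aa rested on few cells in both libraries, as given above, and H2-Ab1 had UMIs in 7 and 38 selected cells. Cluster 3, whose leading genes include these genes, came mostly from the KO-labelled library. The MHC class II list as a whole had UMIs in more cells, with a median share of 0.039% (WT) and 0.077% (KO) of a selected cell's UMIs. The lower quartile was 0 in both libraries. At median depths of 2019 (WT) and 1398.5 (KO) UMIs such shares are very few UMIs a cell. A given number of UMIs is a larger share of a shallower cell, and the part of depth in this difference was not tested. Nras, a small GTPase, had 25.2 and 329 CPM, 22 and 211 UMIs, and 85.8% of the latter came from 10 cells. The same gene stood at 26.8 and 212 CPM in other cells. The remaining higher genes of the 8 largest, Mrgpra2b, Serpine2, Ltf and Penk, rested on 9 to 31 UMIs labelled KO and 2 to 7 labelled WT.

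Car2, a carbonic anhydrase, had 195 CPM (170 UMIs) in selected cells labelled WT and 3.12 CPM (2 UMIs) in those labelled KO, a log2 ratio of -5.96 (-9.02 to -4.09), against -0.77 in other cells. Mmp8, a neutrophil collagenase, had 180 and 37.4 CPM, and Cldn15, a claudin, 145 and 21.8. Alox5, the 5-lipoxygenase of leukotriene synthesis, had 20 UMIs in those labelled WT and none in those labelled KO, at least 4.90-fold lower with the floor of 3 counts. Stfa1, Gm5483 and the histone genes Hist1h1b and Hist1h2ae completed the 8 lowest, at log2 ratios from -2.65 to -1.94, and Gm5483 came to -0.19 among cells with 1000 or more genes. These genes were also lower in other cells labelled KO, at log2 ratios from -1.70 to -1.08.

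**Figure D5:**
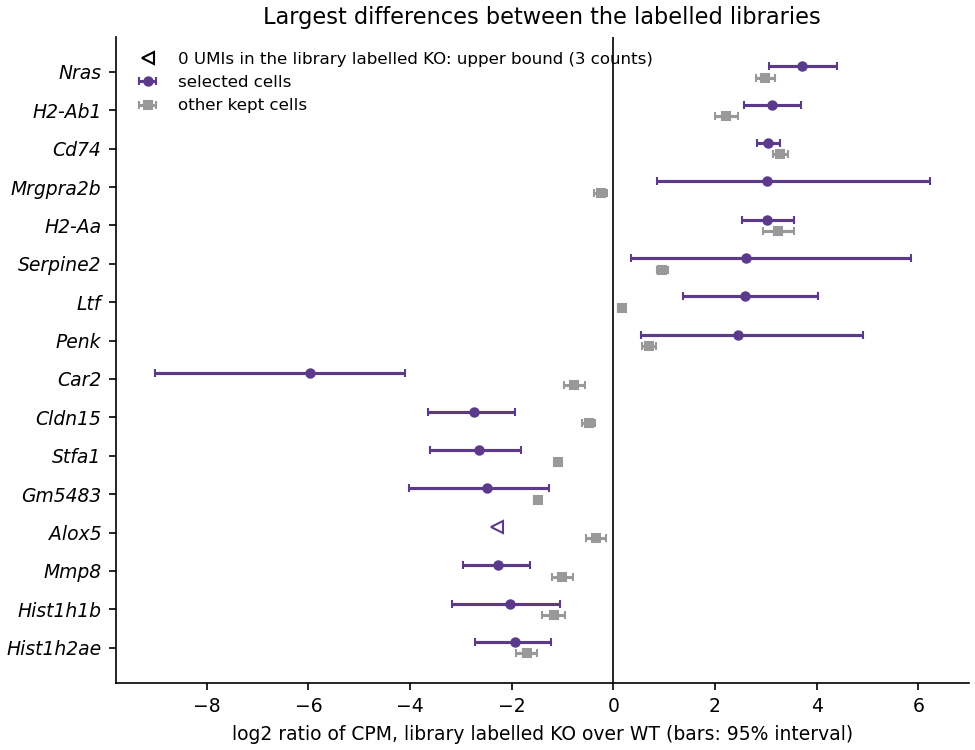
Ratio of CPM on the log2 scale, KO-labelled over WT-labelled library, in selected cells (purple circles) and other kept cells (gray squares), for the 8 highest and 8 lowest genes in selected cells, with bars the 95% counting interval and an open triangle a bound. Cd74 lies at 3.05 in selected cells and 3.29 in others, Nras at 3.71 and 2.99, and Car2 at -5.96 and -0.77.

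Other lists differed less between the libraries. In selected cells labelled KO the log2 ratio of the monocyte list was -0.38, with 2 of 14 genes lower, Lyz2 (8534 and 4518 CPM) and Cybb (384 and 170 CPM), the catalytic chain of the phagocyte oxidase, and none higher. In other cells that list ratio was -0.27. No macrophage gene was called in either direction. In the granulocyte list 4 genes were higher in selected cells labelled KO, Ngp, Camp, Ltf and Retnlg, and 5 lower, among them Chil3 (14558 and 4149 CPM) and Lcn2, lipocalin 2 (503 and 274 CPM). The higher ones leaned on few cells: 10 cells labelled KO held 44.2% of the Ngp UMIs, 40% of Camp and 64.5% of Ltf. In selected cells labelled WT, 10 cells held 14.3% of Ngp and 17.3% of Camp. The median share of the granulocyte list per selected cell was 1.16% (WT) and 0.355% (KO). Of the 5 genes of the score, none passed the fold: Irf8 had a log2 ratio of -0.56 (-0.75 to -0.38) and Ms4a6c of 0.57 (0.45 to 0.69), levels that the rule itself bears on.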

How the data were processed

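Single leukemia cells of 2 pools were measured with the 10x 3′ assay. The authors deposited 1 table of counts (UMIs per gene and cell, 27998 genes by 8309 cells, not normalized), made with Cell Ranger 1.3.1 per the submitters' processing notes on mm10. The study's methods name another version of that tool. Which barcode number is which genotype came from the study's code. Members and gene lists were chosen with earlier results of these data known.

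Cells with 500 or more genes were kept (3866 of 4069 labelled WT, 3545 of 4240 labelled KO). UMIs were summed per library over selected and over other cells and divided by the summed total. No count model was fitted, since each genotype had 1 library. Genes with 50 or more CPM over kept cells were compared, and a 1.5-fold difference was the call. Named genes were the 15 highest by the smaller and the 10 lowest by the larger of the 2 libraries' log2 ratios, the 8 highest and 8 lowest between libraries, Kat2a, and in each list the called genes and up to 4 with most UMIs. Values given for further list genes under the filter, and for genes outside this rule, were chosen after their values were seen. A zero was replaced by 3 counts per group for a bound, and no fold was given where both groups held 3 or fewer. Ratios of counts carry exact 95% intervals. Thinning drew 1000 UMIs per cell. Clusters came from k-means (12 clusters, 10 starts, 20 components, 1000 variable genes, the 5 score genes left out). Doublets were kept: Scrublet's own threshold marked 5 of 8309 cells (0.0602%), so leaving out the 5% of cells with the highest scores was an alternative. The table shares 56 symbols among several gene IDs, which were kept apart by ID. Gene positions came from GENCODE M21, and promoter windows from RefSeq (GRCm38.p6), with 4 of 5 score genes matched and S100a10 without an entry. Python 3.11.15, numpy 2.4.6, scipy 1.17.1, pandas 2.3.3, scikit-learn 1.9.0 and scanpy 1.11.5 were used, and the scripts were tested on simulated data.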

Additional observations from a re-analysis of the deposited data

Results flagged for a closer look

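Cells under 500 genes were left out of the selection, and some of them carried the same genes. In the library labelled KO 33 of 695 such cells (4.75%, 3.29 to 6.60%) reached the score of the lowest selected cell, and in the library labelled WT 2 of 203 (0.985%, 0.120 to 3.51%). At their median depths of 907 and 1063 UMIs, 3 and 4 UMIs of the 5 genes were enough to reach it.

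Car2 and Hras differed between selected and other cells in opposite directions in the libraries. Car2 had a log2 ratio of 1.68 in the library labelled WT (195 against 60.9 CPM) and of -3.52 in the library labelled KO (3.12 against 35.9 CPM, on 2 UMIs in selected cells). Hras, a small GTPase, had -1.38 in the library labelled WT (36.7 against 95.7 CPM) and 0.74 in the library labelled KO (40.5 against 24.3 CPM, on 26 UMIs). The difference between the libraries was not tested, since each is a single library.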

How the results depend on the processing

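No paired analysis was possible because each genotype had 1 library, and for the same reason no library could be left out. The log2 ratio of the selected share, labelled KO over WT, went from 0.14 to -0.24 among cells with 1000 or more genes. Counts of genes grew as the filter was lowered from 50 CPM to 20 CPM or to none, which tests more genes: those higher in selected cells from 229 to 442 and 1434, those lower from 144 to 241 and 516, those higher in cells labelled KO from 246 to 582 and 1589 (372 after thinning, cause not tested), and those lower from 216 to 608 and 1912. The monocyte list ratio stayed above 0 under each alternative. In the library labelled WT it went from 1.15 to 1.08 with every deposited cell, 0.95 thinned, 1.24 in the top 5%, 1.07 in the top 20%, 1.17 without the highest Scrublet scores, 1.05 as a mean of per-cell shares and 1.01 with granulocyte UMIs out of the totals. In the library labelled KO it went from 1.03 to 0.91 with every cell, 1.15 with 1000 or more genes, 0.88 thinned, 0.91 as a mean of per-cell shares and 0.92 with granulocyte UMIs out. Of 690 values for 77 results on named genes under 9 settings, 687 kept their direction, and 199 moved outside their counting interval. The others were H2-Aa at -0.95 (WT) and -0.32 (KO) with 1000 or more genes, and Hbb-bs at 0.27 (KO) thinned. The cause was not tested. Thinning kept 161 of the 229 higher genes (70.3%). Hbb-bs, Stfa3, Serpine2, Alox5 and Car2 rested on few UMIs in at least 1 library, where depth limits their ratios.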
